A study of Mus musculus with 3 samples.

Results

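The genes described here are named for the large and small subunit of the mitochondrial ribosome, and nearly all of them encode its proteins. They were taken as the gene rows whose symbol is Mrpl or Mrps followed by digits. The rule found 78 genes of the 32285 in the tables, of which 49 carry the large-subunit prefix Mrpl and 29 the small-subunit prefix Mrps. The rule reads symbols and no measured value, but it was set with earlier results of these data known. The symbol and the place of the protein differ for Mrps18a and Mrps30, which sit in the large subunit, and for Mrps36, which is not a ribosomal protein, and a few ribosomal proteins such as Dap3 carry other names.

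The study profiled RNA and surface proteins of single cells (CITE-seq) from newborn mouse liver, at P0, after sorting lineage-negative cells with the receptor KIT on their surface. The fetal and newborn liver is a site of blood formation, and this gate is meant to hold blood stem and progenitor cells. There were 3 libraries, 1 for each group: Control mice, MLL-ENL mice, which carry a leukemia fusion of the chromatin regulators MLL (Kmt2a) and ENL, and mice with both this fusion and a deletion of Skida1, labelled Skida1-deleted in the plots and called the deletion library below. Both MLL-ENL groups carry the fusion. How the fusion and the deletion were made, the strain, the genotype of the Control mice beyond that word and the number of animals in a library are not given in any source used.

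Mitochondria keep a small genome of their own and translate its messenger RNAs on a dedicated ribosome. The ribosomal RNAs of that ribosome are encoded in the mitochondrial genome, whereas its proteins are encoded in the nucleus, made in the cytosol and imported. All of its products are core subunits of the respiratory chain or of ATP synthase, so cells that rely on respiration need it. Some of its proteins have a counterpart in the bacterial ribosome and others are found in mitochondria only.

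Many genes of this family have compact promoters without a TATA box. RefSeq promoter windows on GRCm38.p6 (250 bases before to 50 after the start) were matched by symbol for 69 of the 78 genes. The letters CCGGAAG, the core that ETS factors such as GABP recognise, stood on either strand in 26 of the 69 (37.7%), against 9.93% of the windows of 27025 genes, and the longer CCGGAAGT in 12 (17.4% against 4.31%). The NRF1 pattern, GCGCA and GCGC with any base between them, stood in 13 (18.8% against 5.19%) and the form with T between them in 3 (4.35% against 1.07%). The YY1 core AAGATGGC stood in 12 (17.4% against 3.19%) and AAGATGGC followed by GG in 5 (7.25% against 0.995%). The E-box CACGTG stood in 5 (7.25% against 8.09%), CCAAT in 27 (39.1% against 41.1%), the GC box GGGCGG in 34 (49.3% against 38.2%) and TATAAA in 5 (7.25% against 15.7%). Each longer pattern is contained in the shorter one of its factor, and a match is a description of the letters and not a bound site.

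The promoters of 4 genes are printed because these 4 were higher in MLL-ENL than in Control by 0.32 or more on the log2 scale in every lineage compared. They were 4 of 75 genes of the family, beside 5.95% of all genes. They were chosen after their values were seen. Each sequence runs from 180 bases before to 25 after the annotated start, 5′ to 3′ on the gene's strand, and the capitals mark CCGGAAG or its reverse complement. The windows are chr3:95871490-95871694 on the minus strand for Mrps21, chr5:31613771-31613975 on the plus strand for Mrpl33, chr5:100798579-100798783 on the plus strand for Mrps18c and chr14:54426729-54426933 on the plus strand for Mrpl52.
Mrps21: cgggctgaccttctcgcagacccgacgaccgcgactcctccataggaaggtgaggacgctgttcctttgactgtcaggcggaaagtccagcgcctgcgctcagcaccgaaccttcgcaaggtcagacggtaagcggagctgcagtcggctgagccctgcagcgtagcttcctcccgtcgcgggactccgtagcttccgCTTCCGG
Mrpl33: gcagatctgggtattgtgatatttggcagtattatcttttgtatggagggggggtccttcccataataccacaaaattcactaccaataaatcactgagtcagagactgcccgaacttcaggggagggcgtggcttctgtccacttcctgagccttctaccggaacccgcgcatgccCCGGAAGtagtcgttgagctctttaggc
Mrps18c: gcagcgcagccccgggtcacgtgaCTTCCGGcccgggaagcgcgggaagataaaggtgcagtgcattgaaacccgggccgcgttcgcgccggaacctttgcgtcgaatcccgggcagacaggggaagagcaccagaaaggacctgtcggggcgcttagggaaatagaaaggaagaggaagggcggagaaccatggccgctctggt
Mrpl52: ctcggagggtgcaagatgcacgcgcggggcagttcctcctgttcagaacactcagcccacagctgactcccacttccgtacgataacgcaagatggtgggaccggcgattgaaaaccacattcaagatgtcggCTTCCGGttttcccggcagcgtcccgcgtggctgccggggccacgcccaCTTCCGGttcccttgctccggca
The motif stood in 4 of these 4 windows, with 2 copies in Mrpl52, and in 6 of the 15 windows matched for genes that were lower in MLL-ENL by as much in every lineage. No other pattern stood in more than 1 of the 4, apart from CCGGAAGT, which is part of the first and stood in 3. In the 15 windows the GC box stood in 9, CCAAT in 6, the YY1 core in 5 and the NRF1 pattern in 4. CCGGAAGT and the longer YY1 pattern stood in 2 each, the NRF1 form with T and TATAAA in 1 each, and the E-box in 0. Both groups were chosen by their ratios, and the part of any pattern in these ratios was not tested.

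The tables held 6091 cell barcodes and 180656900 gene UMIs (unique molecules counted) in Control, 11910 barcodes and 198773992 UMIs in MLL-ENL, and 10543 barcodes and 207395090 UMIs in the deletion library. After the filters and doublet removal 5394, 10807 and 9344 cells were left, with median depths of 28031.5, 13918 and 17246.5 UMIs. Between 32 and 39 filtered barcodes of a library also occurred in another library. Levels are given as CPM, the UMIs of a gene per 1000000 gene UMIs of the same cells. Kit was at 186, 198 and 228 CPM over all kept cells of the 3 libraries, in the order Control, MLL-ENL, deletion. Skida1 had 36 UMIs (0.229 CPM) in Control, 902 UMIs (4.82 CPM) in MLL-ENL and 92 UMIs (0.505 CPM) in the deletion library. Xist was at 642, 1041 and 2.11 CPM and the Y-linked Ddx3y at 0, 0 and 57.2 CPM, so the sex marker genes of the deletion library differ from those of the other libraries, and the deletion and sex cannot be told apart in it. The hepatocyte gene Alb was at 1.44 CPM or less in every library.

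Cells were clustered with the 78 genes left out, and clusters were called like a lineage from marker lists. The lineages with at least 100 cells in every library numbered 5: HSPC-like (blood stem and progenitor) cells with 1203, 1821 and 2425 cells in the 3 libraries in the same order, erythroid-like with 2849, 5477 and 2991, granulocyte progenitor-like with 181, 241 and 238, megakaryocyte-like with 126, 506 and 836, and basophil-mast-like with 164, 250 and 272. Control and fusion cells mostly fell in different clusters in the HSPC-like and erythroid-like lineages, and mostly shared their clusters in the other 3. Of the 1203 Control HSPC-like cells 1177 lay in cluster 2, whereas those of both fusion libraries lay almost all in clusters 17, 19 and 20. Erythroid-like Control cells lay mainly in clusters 0, 1 and 5 and fusion cells in clusters 14 and 15, with 3009 MLL-ENL cells in cluster 23, whose median depth was 4210.5 UMIs. The median depth of erythroid-like cells was 37162 UMIs in Control and 29816 in the deletion library, but 7273 in MLL-ENL. Cells in unnamed clusters numbered 640, 2384 and 2470.

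With 1 library a group there is no replicate, so no test between groups was made. Intervals in square brackets are exact 95% intervals that cover counting error only, and cells are not replicates. Fewer transcripts of a gene and more transcripts of all other genes cannot be told apart in CPM.

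The summed level of the 78 genes differed more between the highest and lowest lineage of a library than between libraries within a lineage. This does not hold for every pair of lineages. In Control it was 11209 CPM in erythroid-like cells, 9730 in granulocyte progenitor-like, 8041 in megakaryocyte-like, 8004 in HSPC-like and 6925 in basophil-mast-like cells. In MLL-ENL the levels in that order of lineages were 10478, 7834, 7069, 6679 and 6376 CPM, and in the deletion library 10569, 7604, 6978, 6610 and 6581 CPM. Of the 5 lineages, erythroid-like cells were highest and granulocyte progenitor-like cells next in each library. The megakaryocyte-like and HSPC-like levels of Control lay within counting error of each other. Unnamed clusters are outside this order. Cluster 10 held 11041 CPM in MLL-ENL and 10849 in the deletion library, and cluster 24 10665 and 10607.5, above the erythroid-like levels. Clusters 3, 7, 13 and 22 lay below the erythroid-like levels in the libraries counted. Thinned to 3000 UMIs, a HSPC-like cell held a median of 22 UMIs of the family in Control and 19 in each fusion library, and an erythroid-like cell 33, 30 and 31. The thinning left out 6, 2 and 22 HSPC-like cells and 34, 863 and 267 erythroid-like cells as too shallow.

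**Figure D1:**
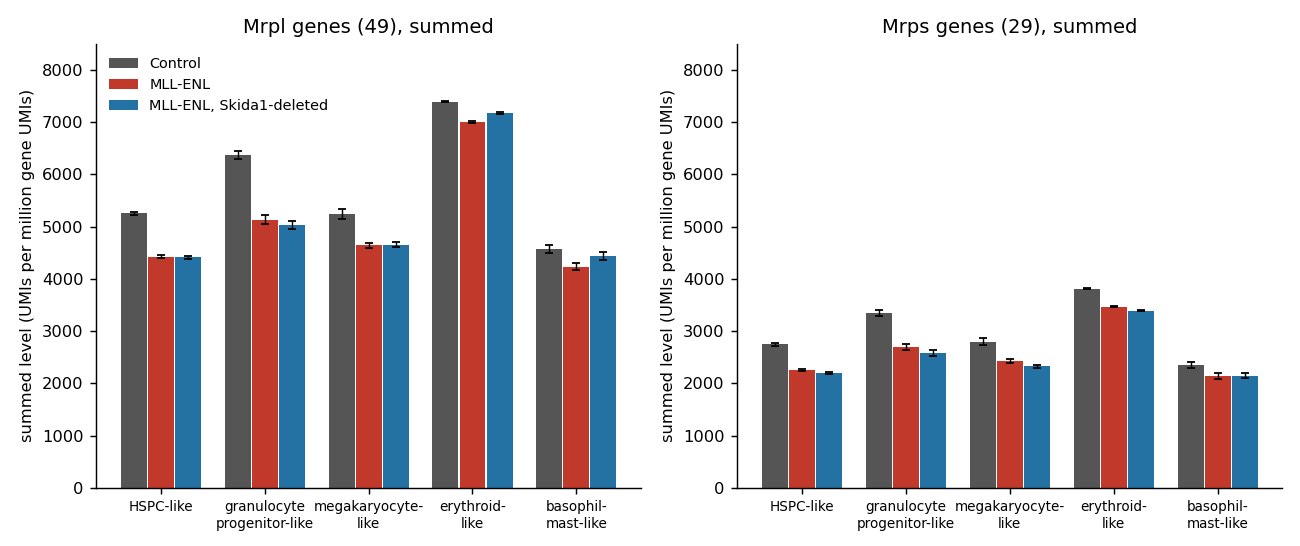
Summed level of the 49 Mrpl genes (left) and the 29 Mrps genes (right), in CPM, for each of 5 lineages on the x axis. Bars start at 0 and stand for 1 library each, coloured by library, with exact 95% Poisson intervals for counting error; the Control bar is above both fusion bars in every lineage, and erythroid-like cells have the highest bars.

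Among the 5 lineages, most single genes were highest in erythroid-like cells, whereas the lowest lineage varied. Erythroid-like cells had the highest level for 60 of the 78 genes in Control, 65 in MLL-ENL and 68 with the deletion, and for 43, 60 and 59 of these the interval lay clear of the next lineage. Basophil-mast-like cells were lowest for 53, 41 and 30 genes. Against HSPC-like cells, erythroid-like cells were at least 1.5-fold higher for 29 of 78 genes in Control, where 17.0% of all genes compared were, for 41 of 77 in MLL-ENL, where 21.6% were, and for 47 of 77 in the deletion library, where 21.4% were. None of the genes compared was at least 1.5-fold lower in erythroid-like cells in any library, where 25.7%, 28.8% and 30.2% of all genes were. The strongest erythroid excess was that of Mrpl52, a large-subunit protein found in mitochondria only, at 249 CPM in erythroid-like and 78.6 CPM in HSPC-like cells of Control (3.17-fold). Mrps18b, a small-subunit protein, was 2.19-fold higher and Mrpl12, the stalk protein that also binds the mitochondrial RNA polymerase, 1.94-fold higher (483 against 248 CPM). Mrpl33 ran the other way in Control, at 100 CPM in erythroid-like and 145 CPM in HSPC-like cells, and Mrps6 likewise, at 36.0 against 49.1 CPM. Mrps6 was higher in erythroid-like cells in the fusion libraries, at 23.9 against 19.5 CPM in MLL-ENL.

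**Figure D2:**
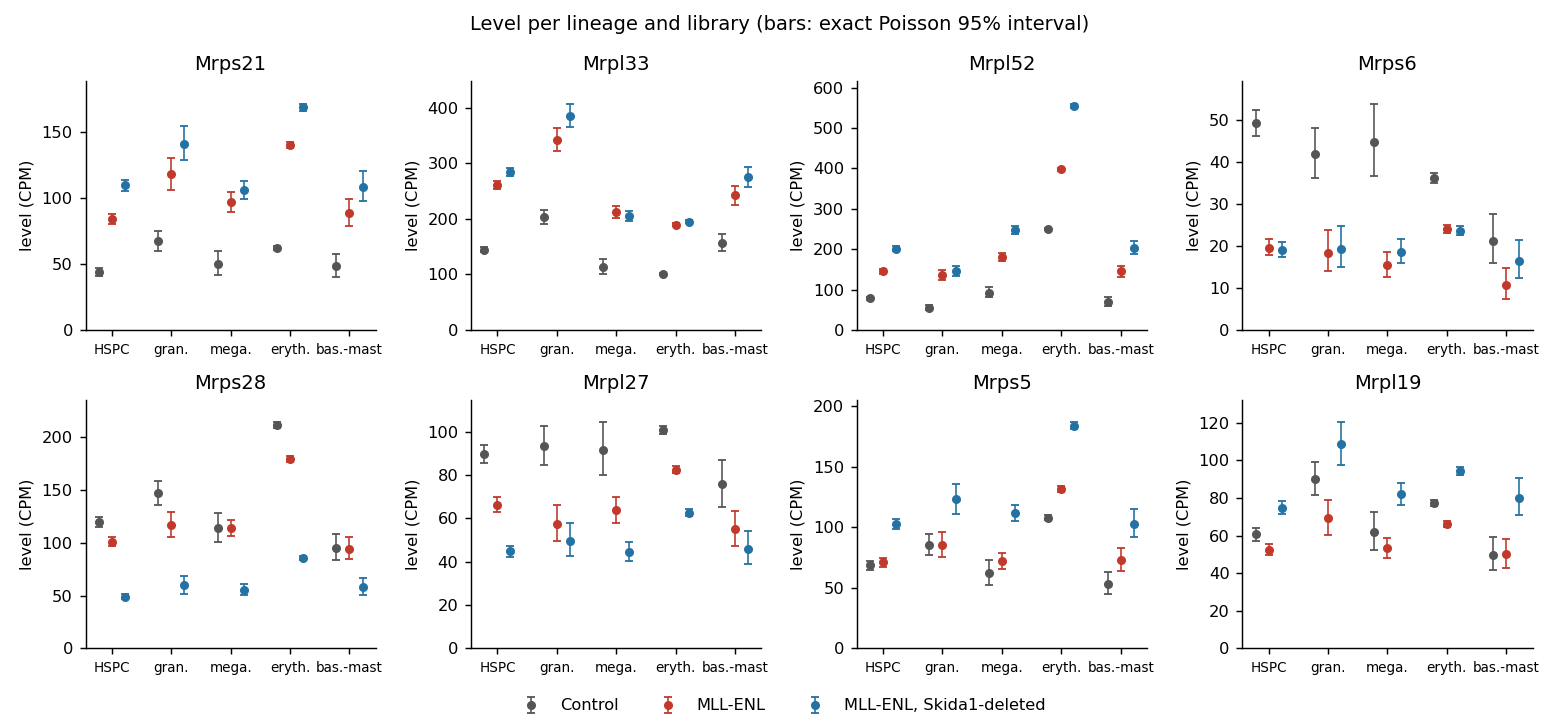
Level in CPM of 8 mitochondrial ribosomal protein genes, 1 panel each, by lineage (x axis, without the suffix -like) and library (colour), with exact 95% Poisson intervals for counting error. Control is lowest for Mrps21, Mrpl33 and Mrpl52 and highest for Mrps6 in every lineage, and the deletion library is lowest for Mrps28 and Mrpl27 and highest for Mrps5 and Mrpl19.

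The first comparison asked how cells with the fusion differ from Control cells. The summed level was lower in MLL-ENL in all 5 lineages, with a ratio of 0.834 [0.829-0.840] in HSPC-like, 0.805 [0.793-0.818] in granulocyte progenitor-like, 0.879 [0.865-0.894] in megakaryocyte-like, 0.935 [0.932-0.937] in erythroid-like and 0.921 [0.902-0.939] in basophil-mast-like cells. With cells classed by a marker score the basophil-mast-like ratio turned to 1.046. Over all kept cells, unnamed clusters included, the ratio was 0.917 [0.915-0.919]. The closest class of the unnamed clusters 10 and 24 was HSPC, with too few raised markers for the name. They held 7 and 0 Control cells, 859 and 80 MLL-ENL cells and 900 and 145 deletion cells. The closest class of clusters 3, 7 and 22 was megakaryocyte, again with too few raised markers. They held 5, 611 and 1 Control cells, 721, 4 and 654 MLL-ENL cells and 824, 0 and 585 deletion cells. The part of these unnamed clusters in the HSPC-like and megakaryocyte-like ratios was not tested. The median of all genes compared was itself lower in MLL-ENL, by a log2 ratio of -0.14 in HSPC-like, -0.22 in granulocyte progenitor-like, -0.18 in megakaryocyte-like, -0.15 in erythroid-like and -0.14 in basophil-mast-like cells. Relative to that median the summed log2 ratio of the family was -0.12 in HSPC-like, -0.09 in granulocyte progenitor-like, -0.01 in megakaryocyte-like, 0.05 in erythroid-like and 0.02 in basophil-mast-like cells, so its sign turned in the last 2 lineages. The summed level of the family was thus further below Control than the median gene in HSPC-like and granulocyte progenitor-like cells, and hardly so in megakaryocyte-like cells. The median log2 ratio of its single genes, relative to that of all genes, was negative in all 5 lineages. It was -0.28 in HSPC-like, -0.21 in granulocyte progenitor-like, -0.22 in megakaryocyte-like, -0.08 in erythroid-like and -0.09 in basophil-mast-like cells. By symbol, the Mrpl genes gave 0.842 [0.834-0.849] and the Mrps genes 0.820 [0.810-0.830] in HSPC-like cells; the Mrps sum includes Mrps18a, Mrps30 and Mrps36.

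Gene by gene, genes were compared that reached 20 CPM in either library and 50 UMIs over both. In HSPC-like cells 77 of the 78 genes did, and Mrps2 did not. Of these, 19 were at least 1.5-fold lower in MLL-ENL, against 14.4% of all genes, and 3 were at least 1.5-fold higher, against 6.54%. The median log2 ratio was -0.42, beside -0.14 over all 6283 genes compared, and 64 of the 77 lay below Control. With scaling by the median gene in place of all UMIs, 9 were lower and 5 higher. The share of all genes was not counted under that scaling, so these counts cannot be set against the percentages given here. In granulocyte progenitor-like cells 25 of 77 genes were lower (19.0% of all genes) and 4 higher (6.89%), in megakaryocyte-like cells 16 of 76 were lower (16.9%) and 4 higher (6.72%), in erythroid-like cells 6 of 78 were lower (11.8%) and 4 higher (5.71%), and in basophil-mast-like cells 11 of 75 were lower (14.9%) and 4 higher (7.10%). With scaling by the median gene the lower and higher counts were 7 and 6, 5 and 6, 1 and 4, and 3 and 6 in these 4 lineages, again without a share of all genes. With scaling by all UMIs, the shares of lower genes in megakaryocyte-like and basophil-mast-like cells lay near those of all genes, and that in erythroid-like cells lay below.

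**Figure D3:**
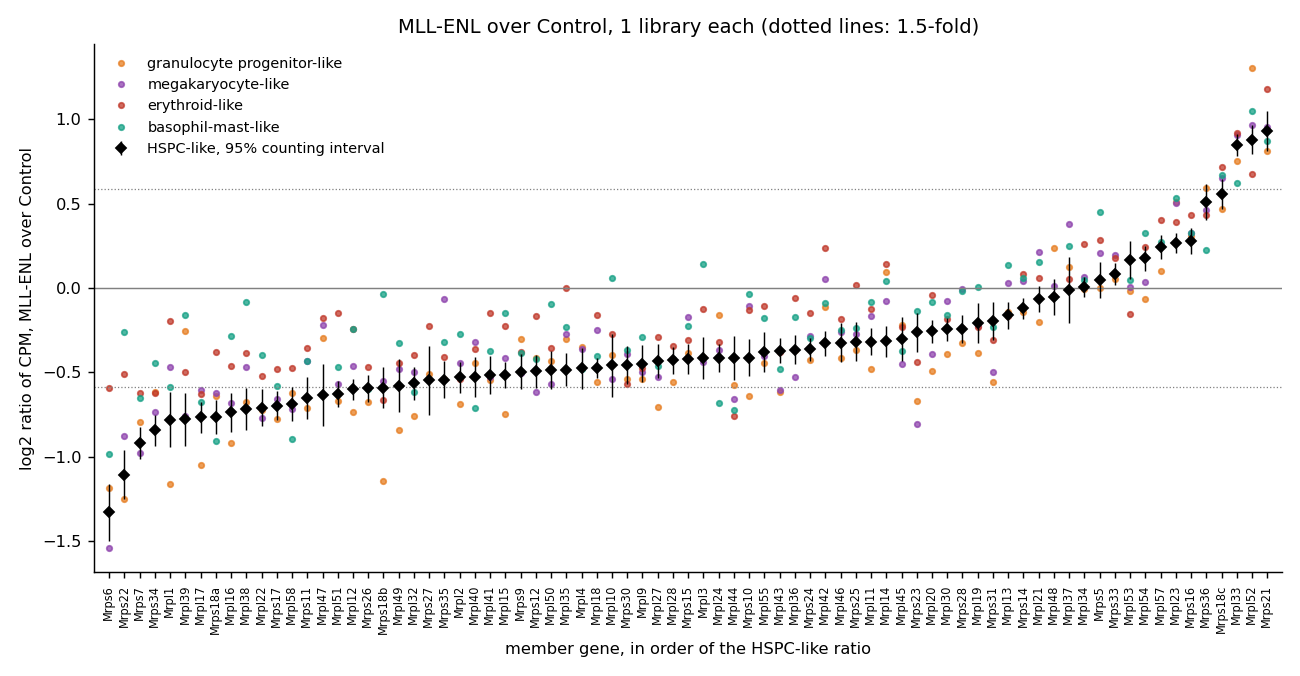
Log2 ratio of CPM in MLL-ENL over Control for each gene compared in HSPC-like cells, in order of that ratio. Black diamonds are HSPC-like cells with 95% intervals for counting error, coloured points the other 4 lineages, and dotted lines a 1.5-fold difference; the diamonds run from Mrps6 at -1.33 to Mrps21 at 0.93, and 64 of 77 lie below 0.

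In HSPC-like cells the lowest and the highest ratio were those of small-subunit genes. Mrps6, a peripheral small-subunit protein with a bacterial counterpart, was at 49.1 CPM in Control, 19.5 in MLL-ENL and 19.0 with the deletion in HSPC-like cells. Both fusion libraries stood well below Control, and MLL-ENL was 2.51-fold [2.24-2.82] lower. Its annotated span overlaps that of Slc5a3, and whether the authors' counting used strand is not given, so reads may be shared. Mrps22, a small-subunit protein found in mitochondria only, was at 58.4, 27.1 and 29.4 CPM in the 3 libraries and 2.15-fold [1.95-2.38] lower in MLL-ENL. Mrps7, which lies in the head of the small subunit and has a bacterial counterpart, was at 119, 63.2 and 62.2 CPM, 1.89-fold [1.77-2.02] lower in MLL-ENL. Its span overlaps Gga3 and Mif4gd. Mrps34, which is needed for a stable small subunit, was at 129, 71.8 and 76.6 CPM, 1.79-fold [1.68-1.91] lower. In erythroid-like cells the same 4 genes were closer to Control: Mrps6 was 1.51-fold lower in MLL-ENL, Mrps22 1.42-fold, Mrps7 1.54-fold and Mrps34 1.54-fold.

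Among large-subunit proteins the lowest log2 ratios in HSPC-like cells were those of Mrpl1 and Mrpl39, both -0.78, Mrpl17 (-0.77) and Mrps18a (-0.76), which despite its name sits in the large subunit. Mrpl17 was at 121 CPM in Control, 71.0 in MLL-ENL and 70.8 with the deletion. The 3 mammalian Mrps18 paralogs differed in direction. Mrps18a was at 99.3, 58.5 and 56.9 CPM and Mrps18b at 68.8, 45.7 and 48.2 CPM, both lower in the fusion libraries, whereas Mrps18c was at 84.0, 124 and 117 CPM and higher in them. Grouped by the presence of a bacterial counterpart, the 10 small-subunit proteins without one had the lowest summed ratio in HSPC-like cells, 0.757 [0.741-0.774]. The 16 small-subunit proteins with a counterpart stood at 0.851, the 30 large-subunit proteins with one at 0.829 and the 21 without one at 0.849. In erythroid-like cells the same 10 proteins stood at 0.789 [0.783-0.796], and the other groups at 0.969, 0.916 and 0.991. Mrps36, which is a component of the 2-oxoglutarate dehydrogenase complex and not of the ribosome, was higher in MLL-ENL, at 84.8 against 59.4 CPM (1.43-fold [1.32-1.54]); 3 RefSeq pseudogenes are named for it, so its count is uncertain. Its ratio was above 1 in all 5 lineages, but in basophil-mast-like cells it was 1.17 and its interval included 1.

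The lineages of 1 library are not independent of each other, since they share its preparation. Across all 5, 17 of 75 genes were lower in MLL-ENL in each, by 0.32 or more on the log2 scale, against 13.3% of all genes compared, and 4 of 75 were higher in each by as much, against 5.95%. The 17 were Mrpl4, Mrpl17, Mrpl22, Mrpl28, Mrpl32, Mrpl43, Mrpl44, Mrpl49, Mrpl58, Mrps6, Mrps7, Mrps11, Mrps17, Mrps18a, Mrps26, Mrps30 and Mrps34. Mrpl58 is the peptidyl-tRNA hydrolase that rescues stalled ribosomes, and Mrps30 is another protein of the large subunit. Mrpl44, a large-subunit protein related to double-strand RNA ribonucleases, was the lowest of all in erythroid-like cells, at 53.8 CPM in Control against 31.9 in MLL-ENL (1.69-fold [1.62-1.76] lower).

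The 4 genes past this threshold in the higher direction were Mrps21, Mrpl33, Mrpl52 and Mrps18c. Mrps21, a small-subunit protein with a bacterial counterpart, was at 44.0 CPM in Control, 83.8 in MLL-ENL and 109 with the deletion in HSPC-like cells, and at 61.8, 140 and 169 CPM in erythroid-like cells. The ratio of MLL-ENL to Control was 1.91 [1.76-2.07] and 2.26 [2.20-2.33] in these lineages. Mrpl33, a small large-subunit protein with a bacterial counterpart, was at 145, 261 and 284 CPM in HSPC-like and at 100, 190 and 195 CPM in erythroid-like cells, with ratios of 1.80 [1.72-1.89] and 1.89 [1.84-1.93]. Its span overlaps that of the gene model Gm38424. Mrpl52 was at 78.6, 145 and 201 CPM in HSPC-like and at 249, 398 and 555 CPM in erythroid-like cells, with ratios of 1.84 [1.73-1.96] and 1.60 [1.57-1.62]. Mrps18c reached a ratio of 1.47 [1.39-1.57] in HSPC-like and 1.65 [1.61-1.69] in erythroid-like cells. In both lineages Control was the lowest of the 3 libraries for each of the 4 genes, and the deletion library the highest for each except Mrps18c. Mrps16, Mrpl23 and Mrpl57 were higher in HSPC-like cells by smaller log2 ratios of 0.28, 0.27 and 0.24, and for Mrpl23 a RefSeq pseudogene is named.

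Cell cycle genes were lower together with the family in this comparison. In HSPC-like cells 35 of 48 G2M genes and 11 of 38 S phase genes were at least 1.5-fold lower in MLL-ENL, with summed ratios of 0.633 and 0.826, and 34.8% of Control, 60.4% of MLL-ENL and 56.2% of deletion cells were called G1. Among HSPC-like cells the family was lower in those called G1 than in those called S or G2M, in every library. Within G1 its summed level was 7079 CPM in Control, 6009 in MLL-ENL and 5970 with the deletion. Within S it was 8225, 7049 and 6985 CPM, and within G2M 8314, 7344 and 7088 CPM. Control was highest in each phase, and the MLL-ENL to Control ratio among G1 cells was 0.849, beside 0.834 over all HSPC-like cells. Phase calls read the same RNA as the levels and can be affected by depth, whose median for HSPC-like cells was 15309, 10443 and 9162 UMIs in the 3 libraries. They were scored over all lineages together, and 81.1%, 85.5% and 83.1% of erythroid-like cells were called G2M, so a call can also follow lineage. The part of the cell cycle in the lower level was not tested. The summed level of the 17 erythroid markers in HSPC-like cells was 942, 823 and 669 CPM, that of the 12 granulocyte progenitor markers 2489, 2433 and 2522 CPM, and that of the 18 HSPC markers 2736, 2284 and 2271 CPM, and the part of these in the result was not tested. In erythroid-like cells the granulocyte progenitor markers summed to 33.4, 139.6 and 31.2 CPM and the erythroid markers to 5365, 4146 and 3951 CPM, and their part was not tested either. In granulocyte progenitor-like cells the granulocyte progenitor markers summed to 20715, 14564 and 17293 CPM and the erythroid markers to 187, 359 and 139.9 CPM. In megakaryocyte-like cells the megakaryocyte markers summed to 5187, 4271 and 3768 CPM and the granulocyte progenitor markers to 516, 148 and 136 CPM. In basophil-mast-like cells the HSPC markers summed to 2765, 1673 and 1891 CPM and the basophil-mast markers to 5294, 3806 and 2153 CPM. The part of these in the results of these lineages was not tested. Of the HSPC-like clusters of the fusion libraries, cluster 20 held 7313 CPM of the family in MLL-ENL, cluster 17 held 6740 and cluster 19 held 5775, all below the 8013 CPM of Control cells in cluster 2.

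**Figure D4:**
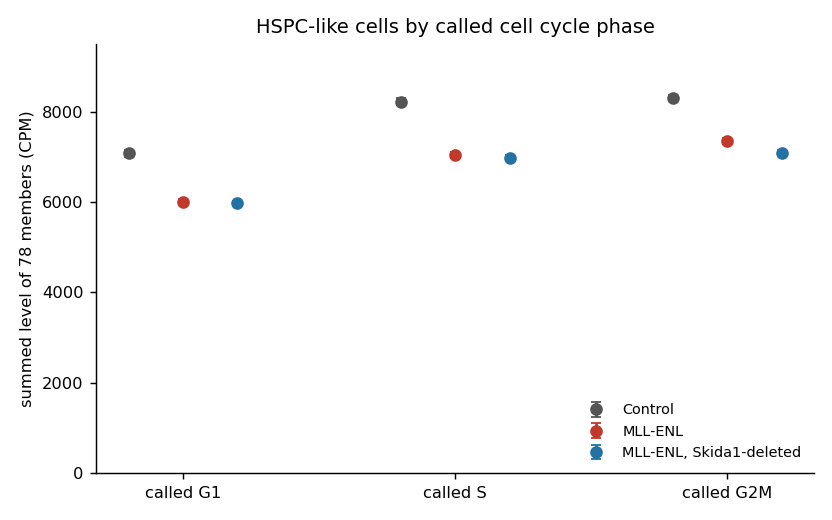
Summed level of the 78 genes in HSPC-like cells, in CPM from 0, by called cell cycle phase (x axis) and library (colour); each point is 1 library with its exact 95% Poisson interval for counting error. Control is highest in each phase, and cells called G1 are lowest in each library.

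Other genes of mitochondrial gene expression were counted in HSPC-like cells under the same minimum, where 14.4% of all genes were at least 1.5-fold lower and 6.54% higher. Of 13 genes compared for mitochondrial ribosome assembly and ribosomal RNA modification 7 were lower and 0 higher, with a median log2 ratio of -0.59. Among them were Mtg1, a GTPase of large-subunit assembly, at 11.1 CPM in MLL-ENL against 24.0 in Control, Noa1, a GTPase of small-subunit assembly, at 21.3 against 38.4, and the ribosomal RNA methyltransferase Mrm3, at 12.7 against 22.9. The list of ribosomal proteins named otherwise, which also held Oxa1l, not itself a ribosomal protein, had 0 of 6 past 1.5-fold. Its median log2 ratio was -0.35. Of these Dap3, a GTP-binding small-subunit protein, was at 72.6 against 107 CPM, and Chchd1, also of the small subunit, at 165 against 131 CPM.

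Translation factors and regulators were split, with 2 higher and 2 lower of 11. Slirp, which binds mitochondrial messenger RNA together with Lrpprc, was at 83.2 CPM in MLL-ENL against 39.5 in Control (2.10-fold [1.93-2.29] higher), and the COX1 translation regulator Cox14 at 165 against 97.1 CPM. The elongation factor Tsfm was at 39.0 against 72.9 CPM (1.87-fold [1.72-2.04] lower), and Coa3, the partner of Cox14, at 80.4 against 122 CPM. Of the mitochondrial aminoacyl-tRNA synthetases 3 of 9 were lower, namely Yars2, Rars2 and Fars2, and of the transcription and nucleoid genes 2 of 6, namely the nuclease Mgme1 and the RNase P subunit Hsd17b10. The 13 messenger RNAs of the mitochondrial genome had a summed ratio of 0.958 [0.955-0.960], with 0 lower and 3 higher past 1.5-fold, namely mt-Nd3, mt-Nd4l and mt-Nd6. Of 9 regulators of mitochondrial biogenesis only Mycn passed 1.5-fold (42.5 against 65.0 CPM); Yy1 was at 134 against 199 CPM, Myc at 92.4 against 122 CPM and Nrf1 at 30.6 against 23.7 CPM. Of 25 MYC and cytosolic ribosome biogenesis genes 7 were lower, among them the spermidine synthase Srm at 79.0 against 180 CPM.

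The second comparison asked what the deletion of Skida1 changes in fusion cells. It shares the MLL-ENL library with the first, so low or high values in that library enter both. The summed level differed little: the ratio of the deletion library to MLL-ENL was 0.990 [0.983-0.997] in HSPC-like, 0.971 [0.954-0.988] in granulocyte progenitor-like, 0.987 [0.976-0.999] in megakaryocyte-like, 1.009 [1.006-1.012] in erythroid-like and 1.032 [1.013-1.052] in basophil-mast-like cells. In HSPC-like cells 74 genes were compared; Mrpl10, Mrps2, Mrps6 and Mrps27 missed the minimum. Of the 74, 1 was at least 1.5-fold lower, where 0.598% of all genes were, and 0 were higher, where 1.59% were. In granulocyte progenitor-like cells 1 of 75 was lower (2.68% of all genes) and 1 higher (2.13%), in megakaryocyte-like cells 1 of 75 lower (0.936%) and 2 higher (1.43%), in erythroid-like cells 1 of 77 lower (1.08%) and 0 higher (1.04%), and in basophil-mast-like cells 1 of 74 lower (2.92%) and 1 higher (2.44%). The median log2 ratio of the family in HSPC-like cells was -0.01, beside -0.02 over all genes.

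**Figure D5:**
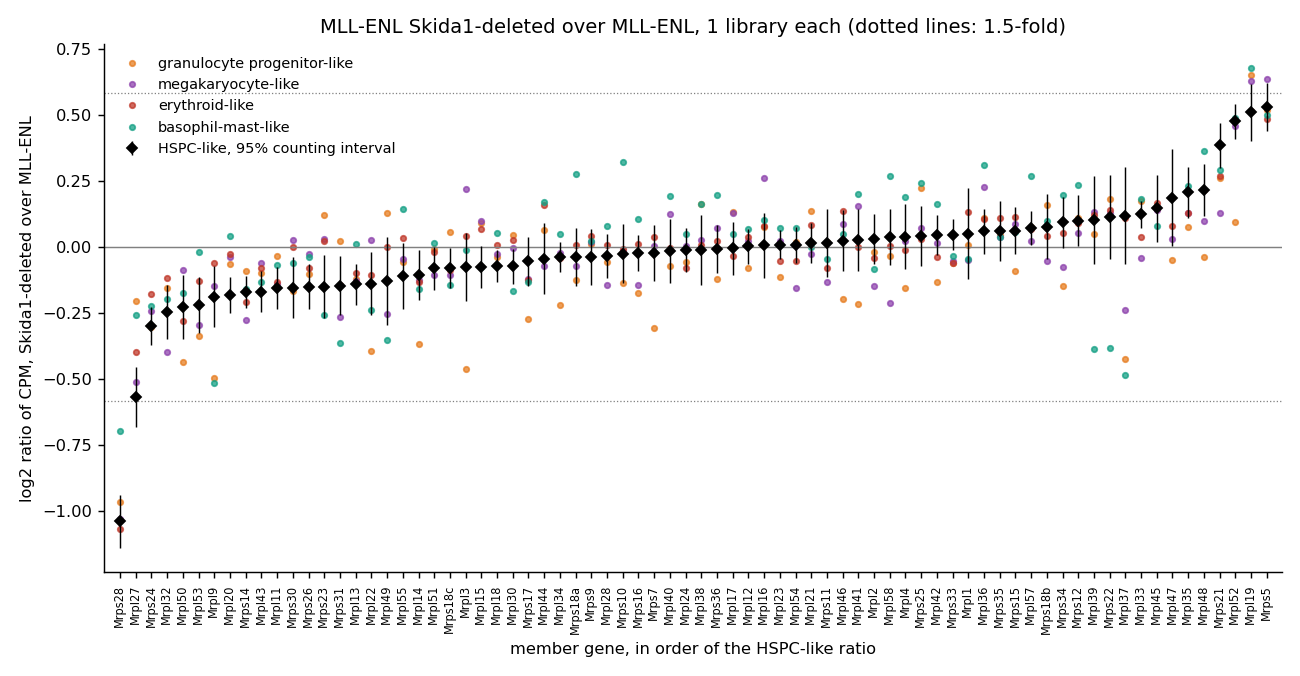
Log2 ratio of CPM in the deletion library over MLL-ENL for each gene compared in HSPC-like cells, in order of that ratio, drawn as diamonds with 95% intervals for counting error. Coloured points are the other 4 lineages and dotted lines a 1.5-fold difference; most of the 74 genes lie close to 0, with Mrps28 (-1.04) and Mrpl27 (-0.57) lowest and Mrps5 (0.53) and Mrpl19 (0.51) highest.

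The gene past 1.5-fold in the lower direction was Mrps28 in each lineage. This small-subunit protein is encoded at chr3:8802146-8923857 in GRCm38.p6, where its span overlaps the gene models Gm15466, Gm52600 and Gm52601. In HSPC-like cells it was at 119 CPM in Control, 101 in MLL-ENL and 49.0 with the deletion, the last 2.06-fold [1.92-2.21] below MLL-ENL. In erythroid-like cells it was at 211, 179 and 85.4 CPM, 2.10-fold [2.04-2.16] lower than in MLL-ENL. In granulocyte progenitor-like cells it was at 147, 117 and 59.8 CPM, in megakaryocyte-like cells at 114, 114 and 55.5 CPM and in basophil-mast-like cells at 95.2, 94.2 and 58.0 CPM. The deletion library was thus the lowest of the 3 in every lineage, while Control and MLL-ENL lay within 1.26-fold of each other. For this gene and for Mrps5, Mrpl19 and Mrpl27, described next, the deletion cannot be told apart from the sex of the library, and the strain of the mice is not given.

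Mrps5 and Mrpl19 were higher in the deletion library than in MLL-ENL in all 5 lineages by a log2 ratio of at least 0.32, 2 of 73 genes compared in each, against 2.43% of all genes; Mrps28 alone was lower in all 5, 1 of 73, against 1.1%. Mrps5, a small-subunit protein of the decoding region with a bacterial counterpart, lies at chr2:127587426-127603986. It was at 68.7 CPM in Control, 71.0 in MLL-ENL and 103 with the deletion in HSPC-like cells (1.44-fold [1.35-1.54] over MLL-ENL) and at 108, 131 and 184 CPM in erythroid-like cells. Mrpl19, a large-subunit protein with a bacterial counterpart, lies at chr6:81957826-81965949, where its span overlaps Gcfc2. It was at 60.7, 52.5 and 74.7 CPM in HSPC-like cells (1.42-fold [1.32-1.53] over MLL-ENL) and at 77.4, 66.0 and 94.4 CPM in erythroid-like cells. Both genes were highest in the deletion library in every lineage.

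Mrpl27, which lies near the peptidyl transferase centre of the large subunit, was at 89.7, 66.4 and 44.8 CPM in HSPC-like cells, 1.48-fold [1.37-1.60] lower in the deletion library than in MLL-ENL. It overlaps Eme1 and has a named RefSeq pseudogene, and in granulocyte progenitor-like and basophil-mast-like cells the interval of its ratio included 1. Mrpl52 was 1.39-fold [1.33-1.45] and Mrps21 1.31-fold [1.23-1.39] above MLL-ENL in HSPC-like cells. Genes within 500 kb of these members that met the minimum were looked at in HSPC-like cells. Past 1.5-fold were 0 of 2 near Mrps28, 0 of 6 near Mrps5, 0 of 3 near Mrpl27 and 0 of 11 near Mrpl52. Of all genes compared, 1.59% were higher by as much and 0.598% lower, and Mrps5, Mrpl27 and Mrpl52 did not pass 1.5-fold themselves. These counts therefore cannot set a member apart from its neighbours. Ratios of the neighbours ran from 0.943 to 1.22 near Mrps28 and from 0.866 to 1.14 near Mrps5. They ran from 0.960 to 1.09 near Mrpl27 and from 0.826 to 1.36 near Mrpl52. No gene near Mrpl19 met the minimum.

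In HSPC-like cells the messenger RNAs of the mitochondrial genome had a summed ratio of 0.859 [0.856-0.861], while 3 of 13, mt-Nd4l, mt-Atp8 and mt-Nd3, were at least 1.5-fold higher. Of all genes compared there, 1.59% were higher by as much and 0.598% lower. Mterf3, which acts in ribosome assembly, was the only assembly gene of 7 past 1.5-fold and was lower, and Trmt10c, the methyltransferase subunit of mitochondrial RNase P, was the only one of 5 transcription and nucleoid genes and was also lower. Myc, the growth regulator, was at 56.3 CPM in the deletion library against 92.4 in MLL-ENL and 122 in Control, 1.64-fold [1.53-1.76] below MLL-ENL. The MYC and ribosome biogenesis list had a summed ratio of 1.025 [1.018-1.032] all the same. The G2M genes had a summed ratio of 1.14 [1.14-1.15], and their part in the values of the family was not tested.

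Set side by side, the 17 genes that were lower in MLL-ENL by 0.32 or more on the log2 scale in every lineage had ratios of the deletion library to MLL-ENL from 0.843 to 1.07 in HSPC-like cells, with a median of 0.972, and ratios to Control from 0.387 to 0.739. The 4 genes that were higher by as much had ratios to MLL-ENL from 0.945 to 1.39 and to Control from 1.39 to 2.56. The ratios to Control use the same Control library that chose these genes. A high or low Control value of a gene thus enters both, and the deletion library is no independent check. Against Control, the deletion library had 27 of 77 genes at least 1.5-fold lower in HSPC-like cells, where 18.2% of all genes were, and 3 higher, where 8.92% were.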

How the data were processed

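Per the file headers the deposited matrices hold raw UMI counts per cell barcode from Cell Ranger 6.1.2; the submitters' processing notes name 6.0.1 and build mm10. Strand use in counting is not stated in any source used. The members and lists were chosen with earlier results of these data known.

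Cells were kept with at least 1000 UMIs, 500 genes and under 10% mitochondrial UMIs; scrublet calls (383 in Control, 341 in MLL-ENL, 618 in the deletion library) were removed. The 3 libraries were clustered together in scanpy 1.11.5 (2000 variable genes, 30 principal components, 15 neighbours, Leiden resolution 1). Mitochondrial, Rpl, Rps, Mrpl, Mrps and Y-linked genes, Xist and Tsix were left out of the variable genes. A cluster took the class with most markers among its top 50 genes by fold (at least 20 CPM), with at least 3 markers 1.5-fold above clusters of other classes; otherwise it stayed unnamed. B-lineage and monocyte-dendritic progenitor cells had under 100 cells in some library and were not compared. UMIs were summed per library and lineage and divided by all gene UMIs there. Ratios have exact conditional binomial intervals. On counts simulated with Poisson error only, 200 of 5892 genes were given a change past the fold. Of these 100% passed it, and 94.2% of 95% intervals covered the true ratio. Variation between cells, libraries or animals was not simulated, so this checks the calculation only.

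Genes named in the text are the 8 highest and 8 lowest ratios in HSPC-like cells, the 4 highest and lowest in each other lineage, those past 1.25-fold in all 5 lineages, and up to 4 genes of each other list. The grouping by bacterial counterpart, the promoter patterns, the neighbouring genes and the Mrps18, Mrpl12, Mrps36 and erythroid over HSPC examples were added after values were seen. Positions are those of RefSeq on GRCm38.p6, joined by symbol; 25 of the 78 genes overlap another gene and 4 have a named pseudogene. The 10 antibody tags were not used.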

Additional observations from a re-analysis of the deposited data

How the results depend on the processing

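No paired analysis was possible because each group is 1 library, and the replicate number only names it. The lower summed level of MLL-ENL against Control in HSPC-like cells kept its direction under all 9 alternatives. It was 0.845 with cells classed by a marker score, 0.810 at Leiden resolution 0.5, 0.820 with granulocyte progenitor-like cells added, 0.845 without doublet removal, 0.849 in G1 cells, 0.919 with median-of-ratios scaling and 0.875 without clusters of low depth, an alternative chosen after seeing the data. In erythroid-like cells it was 0.947 with the marker score, 0.948 at resolution 0.5, 0.930 without doublet removal, 0.940 above 5000 UMIs, 0.921 thinned to 3000 UMIs and 0.951 without clusters of low depth, but 1.037 with median-of-ratios scaling. In basophil-mast-like cells it turned to 1.046 with the marker score and 1.015 with median-of-ratios scaling. The erythroid-like value in G1 cells was not run, since Control had 3 such cells. In megakaryocyte-like cells Control and MLL-ENL stood at 8086 and 7722 CPM at resolution 0.5 and at 7835 and 7455 CPM with the marker score. These pairs lay closer together than the 8041 and 7069 CPM of the main setting. In G1 cells, at 7968 and 6440 CPM, and thinned to 3000 UMIs, at 8121 and 6883 CPM, they lay further apart. Granulocyte progenitor-like cells stood at 9409 and 7835 CPM with the marker score.

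The number of genes higher past 1.5-fold in HSPC-like cells was 5 with the marker score and 5 with median-of-ratios scaling, and that of lower genes 9 with the latter. Shares of all genes were not counted under these alternatives. All 30 genes named for this comparison kept their direction in HSPC-like cells under every alternative, but not their size. With median-of-ratios scaling 25 of the 30 ratios lay outside their main counting interval, in G1 cells 11 and when thinned 10. Under each other alternative at most 7 did.

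Between the deletion library and MLL-ENL the summed ratio in HSPC-like cells was 0.999 with the marker score, 1.004 with median-of-ratios scaling and 0.979 without clusters of low depth. In erythroid-like cells it was 1.001 with the marker score, 1.003 at resolution 0.5, 0.997 without doublet removal, 1.004 above 5000 UMIs, 0.709 in G1 cells (63 and 44 cells), 1.032 with median-of-ratios scaling, 1.037 thinned and 0.994 without clusters of low depth. Median-of-ratios scaling gave 1.007 in granulocyte progenitor-like and 1.003 in megakaryocyte-like cells, thinning gave 1.015 in the latter, and the marker score gave 0.987 in basophil-mast-like cells. Genes past 1.5-fold in HSPC-like cells were 2 higher and 2 lower with the marker score and 2 lower when thinned, again without a share of all genes. Of the 22 genes named for this comparison, 20 to 22 kept their direction. The cause of these changes was not tested.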
